A study of Mus musculus with 360 samples.

Results

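Canonical Wnt (cWnt) signaling was followed through 10 of its own genes in single CD51+;CD200+ skeletal stem/progenitor cells of the mouse. The 10 genes are Axin2, Nkd1, Nkd2, Lef1, Tcf7, Lrp5, Lrp6, Fzd1, Fzd2 and Ctnnb1. They were chosen by name as the receptors, the transducer and the response genes of the pathway, and all 10 are among the 24015 genes counted. The study asked how these cells differ between the posterior frontal (PF) suture, which fuses early in life, and the sagittal (SAG) and coronal (COR) sutures, which stay patent, with the tibial growth plate (GP) as reference. Every cell came from wild-type CD-1 mice at postnatal day 3. The cells had been sorted for CD51 and CD200 and against the blood markers CD45 and Ter119, the vessel marker Tie2, both forms of Thy1, 6C3 and CD105, and no cell was treated or carried a transgene. Full-length SMART-seq2 libraries of 360 cells had been made on 8 plates, 2 for each tissue, and 325 cells with at least 500 genes and 10000 reads were kept, 87 from PF, 86 from SAG, 74 from COR and 78 from GP. Mice were pooled for the sort and no record ties a cell to an animal. Each tissue is therefore 1 sample, no test between tissues was possible, and the 2 plates gave the only spread. Plate and tissue cannot be told apart, because no plate held cells of 2 tissues.

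In this pathway a Wnt protein binds a Frizzled receptor together with the co-receptor Lrp5 or Lrp6. The complex that otherwise marks β-catenin, the product of Ctnnb1, for destruction is then held back, and β-catenin enters the nucleus, where it acts with DNA-binding factors such as Lef1 and Tcf7. Axin2, Nkd1 and Nkd2 are switched on by the pathway and restrain it in turn, and Axin2 is widely used as a readout of the pathway and as a marker of stem cells in the sutures of the skull.

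All values are CPM, the reads of a gene scaled to a fixed library total, with the ribosomal RNA gene Rn45s left out of the total, because Rn45s took 86.8% of the reads on SAG plate 2 and 20.2% to 30.96% on the other plates. SAG plate 2 also had a median of 875 genes per cell, against 2112 to 3867 on the other plates. Plates held 16 to 58 kept cells, and median reads per cell other than Rn45s ran from 125831 to 511698. The markers of other cell types were nearly silent for vessels and blood. The 4 endothelial markers summed to 0 to 25.6 CPM per plate, with Pecam1 and Emcn at 0 reads on all 8 plates, and the 5 haematopoietic markers summed to 0 to 40.6 CPM, with both globin genes at 0. The 6 cartilage markers were uneven. They summed to 14650 and 11837 CPM on the SAG plates, 870 and 5602 on the GP plates, and 65.8 to 247 on the PF and COR plates. Matn1 was at 0 in PF and COR, Comp was at 0 in COR, and all 6 were read in SAG and GP. The 8 bone markers summed to 61760 and 14736 CPM on the SAG plates and to 50706 to 186920 on the others. These lists move with the tissue, and their part in the values below was not tested.

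The 10 genes differed widely in level. Per kilobase of the longest coding transcript, the mean level over the 4 tissues was 160 CPM for Ctnnb1, 16.6 for Fzd1, 15.6 for Lrp6, 12.4 for Tcf7, 9.48 for Nkd1, 7.86 for Fzd2, 5.21 for Nkd2, 4.98 for Lrp5, 3.35 for Lef1 and 1.72 for Axin2. The transducer was thus the most abundant of the 10 on this scale and the readout Axin2 the least. The same gap was seen in the cells. Ctnnb1 had a read in 243 of 325 cells (74.8%), and Lrp6 in 139 (42.8%). Axin2 had a read in 21 (6.46%) and Lef1 in 18 (5.54%). The reads of Axin2, Lef1 and Nkd2 were the most concentrated. The richest cell held 23.4% of all Axin2 reads, 30.04% of all Lef1 reads and 28.6% of all Nkd2 reads. It held 2.57% for Ctnnb1, 4.34% for Lrp6 and 5.46% for Fzd1.

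**Figure D1:**
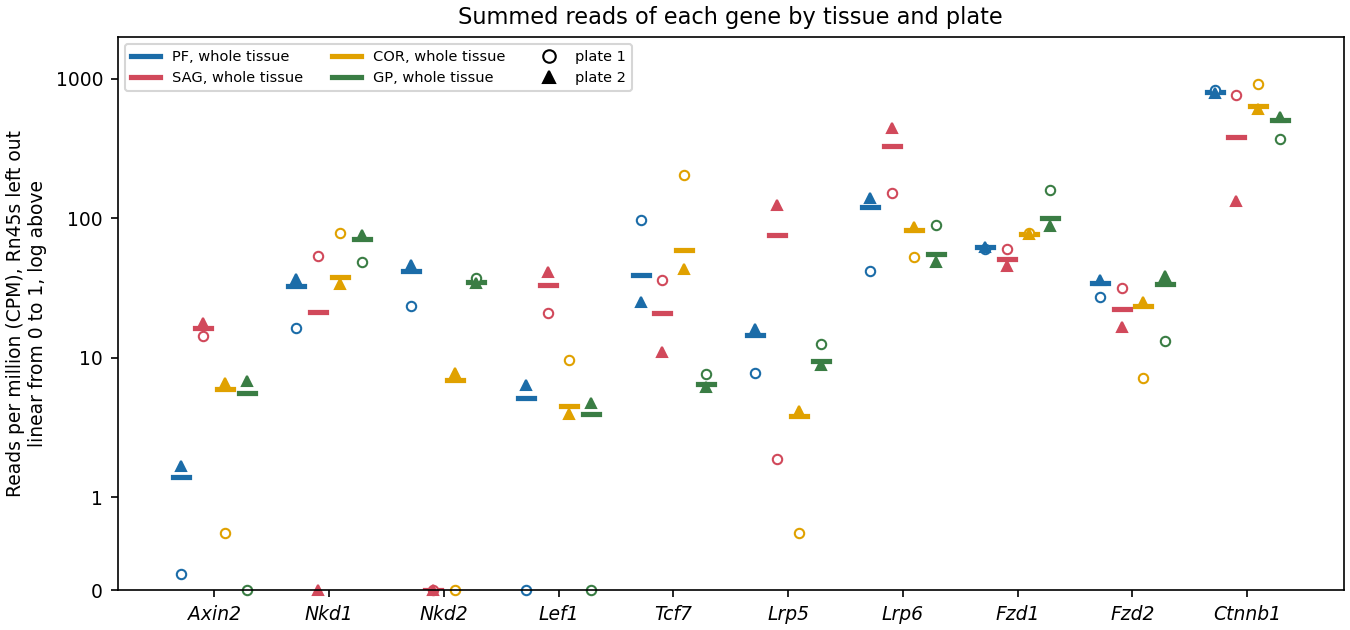
CPM of the 10 genes, with Rn45s left out of the totals, on an axis that is linear from 0 to 1 and logarithmic above; short lines give whole tissues, open circles plate 1 and triangles plate 2. Axin2 and Lef1 were highest on the SAG plates, Nkd2 was at 0 on both SAG plates, and Tcf7 was lowest on the GP plates, where both values lay under 8 CPM.

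Tissues were compared by the log2 ratio of (CPM + 1), which understates the change of weakly read genes. A gene entered a comparison with at least 10 CPM in 1 of the 2 tissues, and a difference was called where the ratio was at least 1 in size and all 4 ratios of a plate of one tissue to a plate of the other had its sign. Of 52 member comparisons that entered, 20 were called, 14 of them with SAG. Between PF and SAG 5 of 10 genes were called, against 30.1% of all genes that entered, with Nkd2 and Ctnnb1 higher in PF and Axin2, Lef1 and Lrp6 higher in SAG. Between SAG and COR 4 of 9 were called (all genes 32.4%), and between SAG and GP 5 of 10 (all genes 31.6%). Between PF and COR 2 of 8 were called (all genes 11.8%), between PF and GP 2 of 8 (16.4%), and between COR and GP 2 of 7 (13.4%). With so few genes, these shares cannot be set apart from those of all genes. The median log2 ratio of the members that entered was 0.43 for PF to SAG, beside 0.29 for all genes. Against COR it was -0.05 with SAG (all genes -0.29) and 0.43 with PF (all genes 0.03). Against GP it was 0.50 with SAG (all genes -0.23), 0.41 with PF (all genes 0.10) and -0.36 with COR (all genes 0.07).

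SAG plate 2 carried part of these calls. Without it, 4 of 10 genes were called between PF and SAG (all genes 33.3%), 2 of 8 between SAG and COR (31.9%) and 5 of 9 between SAG and GP (34%), here from 2 plate ratios in place of 4. In all, 10 of the 14 SAG calls were kept. With Rn45s counted in the totals, 3 of the 14 were kept, since the median of all genes then moved to 2.20 when PF was divided by SAG, and to -2.24 and -2.09 when SAG was divided by COR and by GP. TMM scaling kept 13 of the 14.

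**Figure D2:**
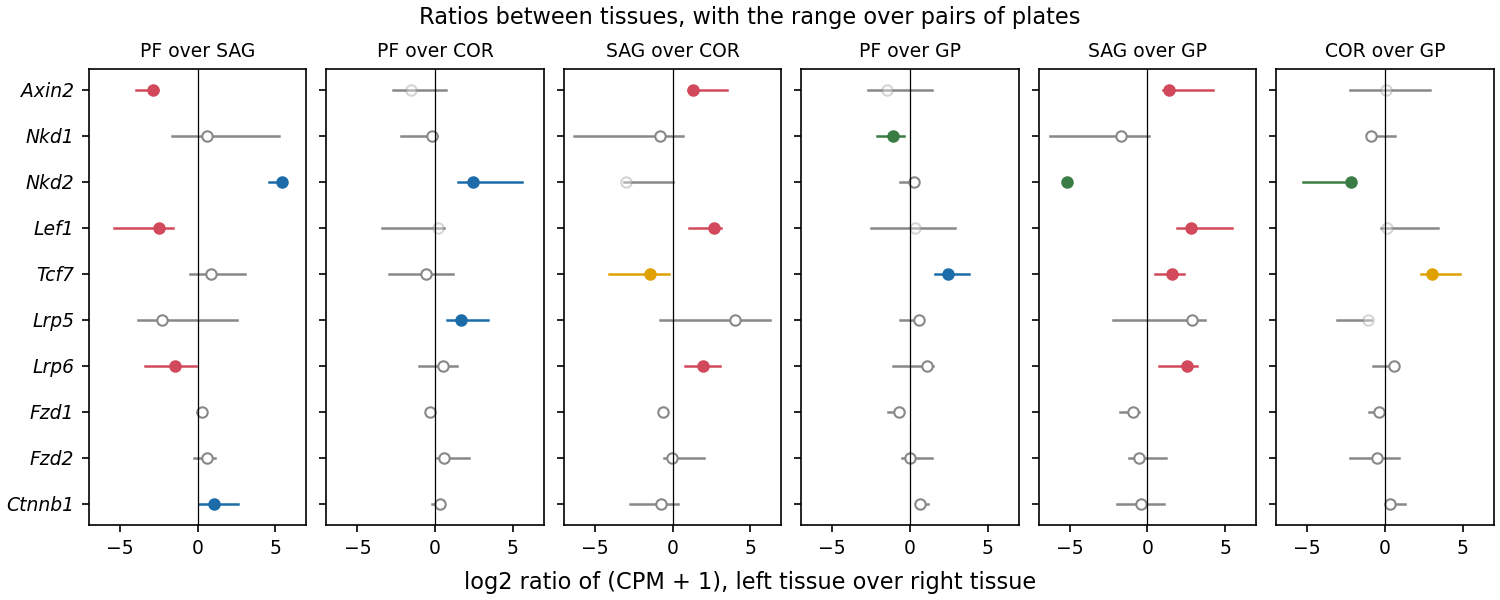
Log2 ratio of (CPM + 1) of each gene in the 6 comparisons of tissues, with a line from the lowest to the highest of the 4 plate ratios. Filled points are calls, in blue where PF was higher, red SAG, yellow COR and green GP; open points were not called, and pale ones did not reach 10 CPM in either tissue. Fzd1 and Fzd2 have no filled point in any panel.

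Axin2, the feedback inhibitor on mm9 chromosome 11 (108781663 to 108812097, plus strand), was read most in SAG. It reached 14.4 and 17.6 CPM on the SAG plates, 0.618 and 6.60 on the COR plates, 0 and 6.76 on the GP plates, and 0.169 and 1.68 on the PF plates. Both SAG plates therefore lay above all 6 others, and PF lay lowest as a whole tissue. The log2 ratio of PF to SAG was -2.86 (plate ratios -3.99 to -2.52). Over COR the SAG level had a ratio of 1.31 (1.02 to 3.52), and over GP of 1.40 (0.99 to 4.22). Axin2 stayed called in all 3 without SAG plate 2. The other neighbours in the order of tissues (COR, GP and PF) were not separated by their plates. The lead of SAG over COR and GP depended on the scaling, and with Rn45s counted these ratios turned to -0.36 and -0.21. PF to SAG then kept its direction at -1.07 but was no longer called.

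The SAG level of Axin2 came from few cells. SAG had reads in 6 of its 86 cells (6.98%, exact 95% interval 2.60 to 14.6) and COR in 7 of 74 (9.46%, 3.89 to 18.5). PF had reads in 5 of 87 (5.75%, 1.89 to 12.9) and GP in 3 of 78 (3.85%, 0.800 to 10.8). The intervals, which cover counting error only, overlap in all 4 tissues. The shares of Axin2 cells were not tested against each other, and overlap cannot show that they were equal. At an equal depth of 100000 reads per cell the shares were 5.63% in SAG, 8.90% in COR, 5.05% in PF and 4.44% in GP. In SAG 1 cell of plate 1 held 69.7% of that plate's Axin2 reads and 1 cell of plate 2 held 86.8%. When the richest cell of every plate was left out, the ratio of SAG to COR turned to -0.32 and that of SAG to GP fell to 0.13, and PF to SAG was -1.57 and no longer called.

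**Figure D3:**
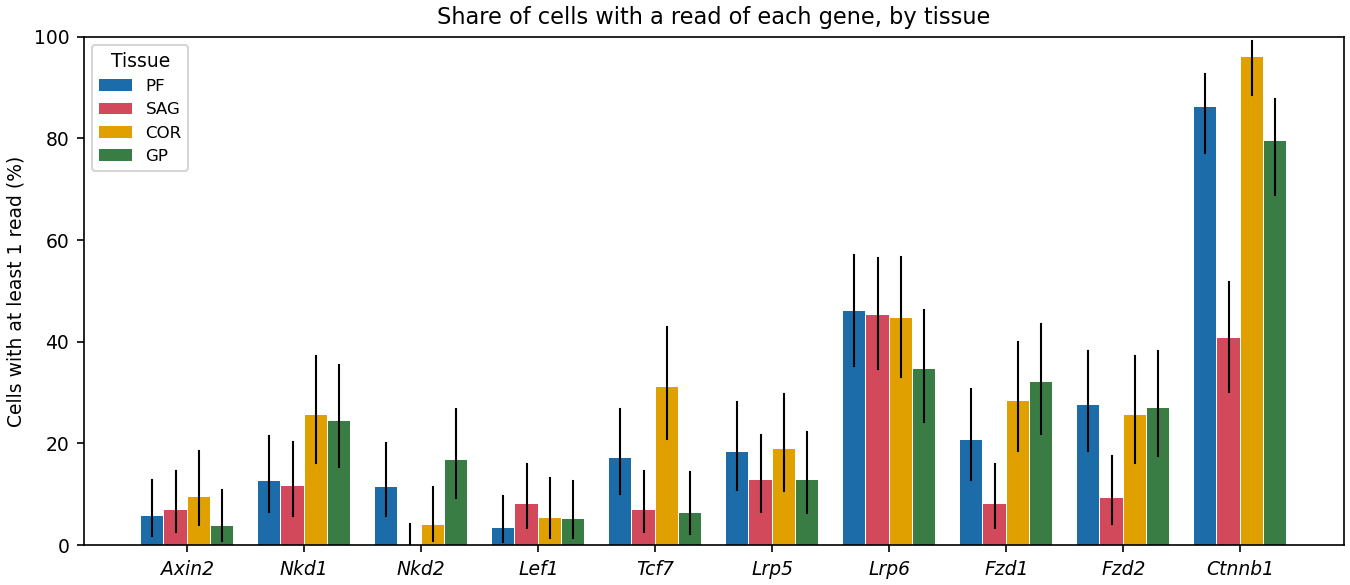
Share of cells with at least 1 read of each gene in each tissue, as bars from 0, with exact 95% binomial intervals as lines. Axin2 intervals overlap in all 4 tissues, Tcf7 stands highest in COR, and Ctnnb1 falls to 40.7% in SAG.

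The 21 cells that held Axin2 were examined one by one. The reads per cell were 29, 8, 3, 1 and 1 in PF, 158, 69, 28, 23, 2 and 1 in SAG, 58, 53, 32, 28, 14, 5 and 2 in COR, and 81, 53 and 25 in GP. Thus 13 of the 21 cells had at least 10 reads, among them 1 of 5 in PF and all 3 in GP, and 3 cells had a single read. GP plate 1 gave no Axin2 cell among 20, which allows a share of up to 15% (3 cells of the total, the limit given throughout for a count of 0), and COR plate 1 and PF plate 1 gave 1 each. Within their own plates the Axin2 cells were not plainly deeper than other cells. Of the 21, 11 lay above the median depth of their own plate and 9 above its median number of genes. By whole tissue, median reads other than Rn45s were higher in Axin2 cells than in other cells in PF (416816 and 287780), COR (551064 and 433647) and GP (653256 and 344605). In SAG they were lower (149236 and 185893).

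**Figure D4:**
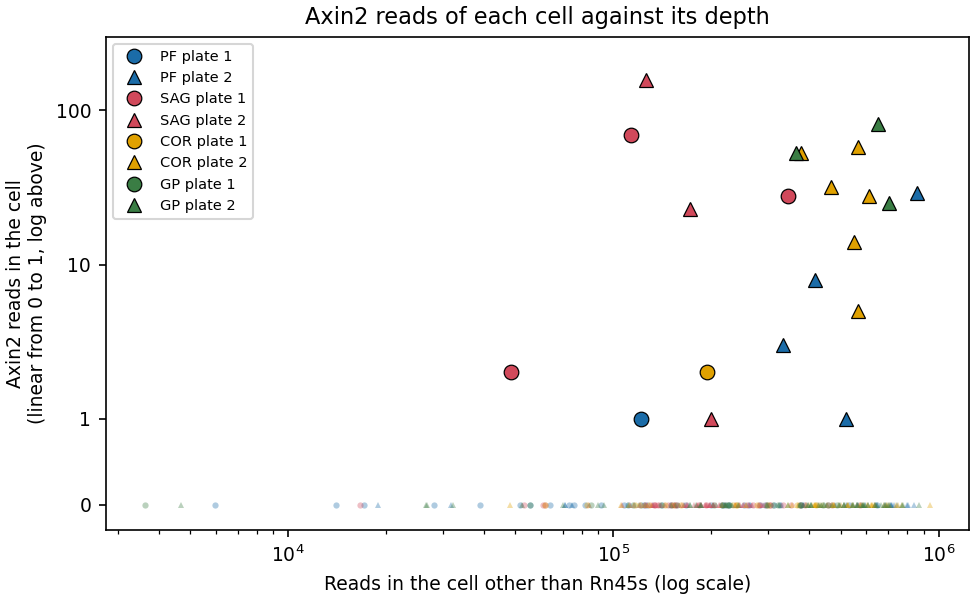
Axin2 reads of each kept cell (linear from 0 to 1, log above) against its reads other than Rn45s (log scale), coloured by tissue, with circles for plate 1 and triangles for plate 2. The 21 cells with a read are outlined; the richest, with 158 reads, is a SAG plate 2 cell of 125831 reads, and the 304 cells without a read lie along 0 over the same depths.

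Among the 10 members, no other response gene was read in more than 5 of the Axin2 cells. Of the 21, 4 had a Tcf7 read (19.05%, against 14.8% of the 304 other cells), 5 an Nkd1 read (23.8% against 17.8%), 1 an Nkd2 read (4.76% against 8.22%) and 1 a Lef1 read (4.76% against 5.59%). In all, 10 of 21 (47.6%) had at least 1 of these 4, against 116 of 304 (38.2%). By tissue this was 3 of 5 in PF, 0 of 6 in SAG, 5 of 7 in COR and 2 of 3 in GP, and among the other cells 36.6%, 25%, 53.7% and 40%. The 6 SAG cells, which carried the most Axin2, thus had no read of Lef1, Tcf7, Nkd1 or Nkd2. Only 3 of these 6 were on plate 1. Plate 2 had few genes per cell, so few such reads could be met there, and no lack is read from this count. On the receiving side, 13 of the 21 had a read of Lrp5 or Lrp6, 10 had Fzd1 or Fzd2, and 6 had both kinds (28.6%, against 23.7% of the other cells). Ctnnb1 was read in 16 (76.2% against 74.7%). Lrp6 and Fzd2 were read in a larger share of Axin2 cells than of other cells in all 4 tissues, with a mean difference of 16.8 and 16.4 percentage points. At equal depth the differences were 9.40 points in 3 of 4 tissues and 23.1 points in 4 of 4, and without SAG plate 2 they were 8.11 and 10.7 points, each in 3 of 4. At 10 or more Axin2 reads Lrp6 turned to -3.31 points, higher in 2 of 4 tissues, and Fzd2 stood at 36.6 points. Cells are not replicates, and none of these differences was tested.

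Markers of cartilage and bone in the Axin2 cells differed by tissue. In SAG all 6 had a read of Sox9, the master factor of cartilage, and 5 had Col2a1, its main collagen, against 71.3% and 63.8% of the other SAG cells; none had Sp7, a factor of the bone lineage, against 12.5%. On SAG plate 1 alone Sox9 was read in 3 of 3 Axin2 cells (others 55.6%) and Col2a1 in 2 of 3 (others 74.1%). In COR 6 of 7 had Sp7 and 6 had Runx2, another bone factor, against 56.7% and 59.7% of the other COR cells. Sox9 was read in 42.9% against 29.9%, Col2a1 in 0 of 7 against 4.48%, and the late bone marker Dmp1 in 0 of 7 against 11.9%. As a mean over cells, Axin2 cells of SAG had reads of 3.83 of the 6 cartilage markers and 1.17 of the 8 bone markers, beside 2.66 and 1.91 in other SAG cells. On SAG plate 1 alone the values were 3.67 and 0.667, beside 3.19 and 2.78. In COR the values were 0.571 and 5, beside 0.925 and 4.28. PF (0.800 and 3.40, beside 0.817 and 3.66) and GP (2.00 and 3.67, beside 1.89 and 3.11) lay closer together. Averaged over tissues, the difference was 0.227 ± 0.659 cartilage markers and 0.0680 ± 0.691 bone markers (SD over 4 tissues), so neither list separated the Axin2 cells beyond the spread between tissues. Col1a1, a collagen of bone and fibrous tissue, was read in 20 of the 21 (95.2%) and in 274 of the 304 other cells (90.1%).

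The list of 5 perivascular or smooth muscle markers was higher in the Axin2 cells of all 4 tissues, by a mean of 0.392 ± 0.0615 genes per cell. Cspg4, which encodes the surface proteoglycan NG2, accounted for most of it, with a read in 12 of the 21 (57.1%) and in 80 of the 304 (26.3%), whereas Rgs5 and Myh11 were read in 0 of the 21. At equal depth this list was higher in 2 of 4 tissues, by a mean of 0.181, and Cspg4 in 3 of 4, by 14.7 points. The 5 markers of suture stem cells differed by 0.147 ± 0.429 genes per cell. Among them, Gli1 was read in 1 of the 21 and in 24 of the 304 (7.89%), and Prrx1 in 16 (76.2%) and 209 (68.8%). The remaining lists differed by 0.0769 ± 0.643 genes (fibroblast), 0.256 ± 0.429 (tendon), 0.0227 ± 0.105 (endothelial), -0.0234 ± 0.116 (haematopoietic), -0.135 ± 0.113 (neural or glial), -0.0817 ± 0.140 (cycling) and 0.272 ± 0.206 (the 2 sort markers). The cycling markers were rare in both kinds of cell, with Mki67 in 1 of the 21 and 21 of the 304 (6.91%). Of the sort markers, Itgav, which encodes CD51, was read in 12 (57.1%) and 116 (38.2%), and Cd200 in 11 (52.4%) and 136 (44.7%). By tissue, Itgav was higher in the Axin2 cells in 2 and lower in 2, and Cd200 was higher in 1 and lower in 3. At equal depth the mean difference of Cd200 turned to -9.09 points.

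**Figure D5:**
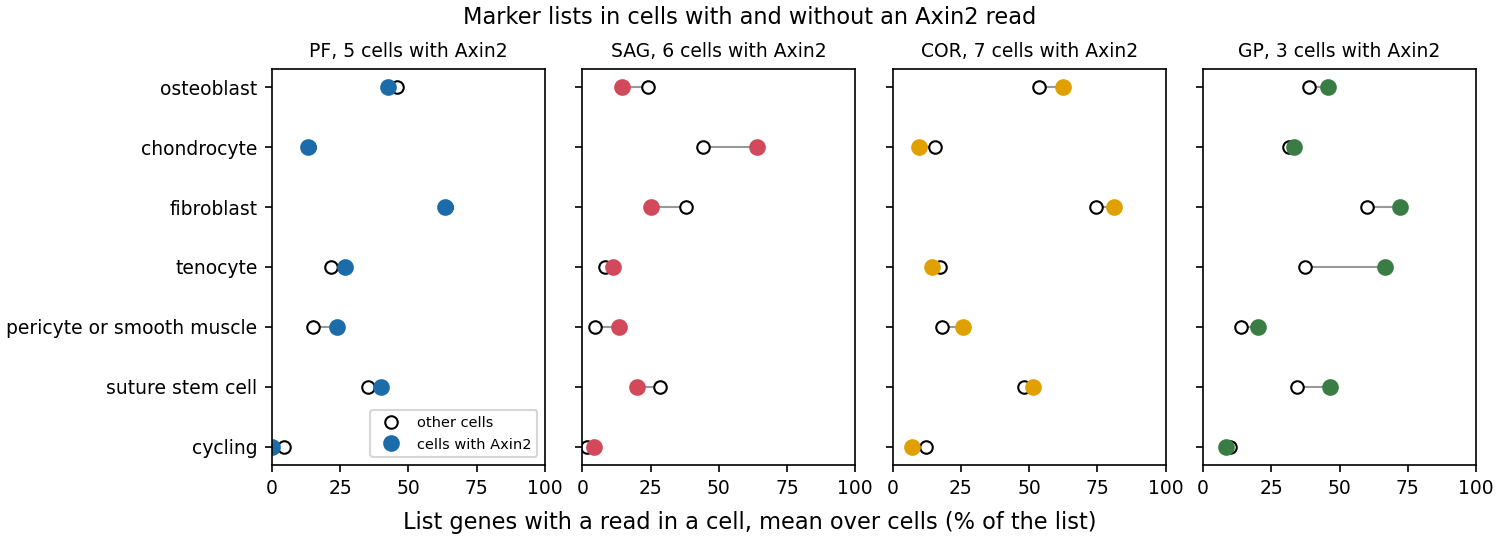
Mean share of each marker list read in a cell, in percent of the list's genes, for cells with an Axin2 read (filled) and other cells of the same tissue (open). In SAG the cartilage list stands at 63.9% against 44.4% and the bone list at 14.6% against 23.9%; in COR the bone list stands at 62.5% against 53.5%.

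Over the 7574 genes read in at least 10% of cells at equal depth, the 5 that ranked highest by likeness to Axin2 were Afap1, Commd9, Ccnt2, Soga1 and Rnf181. Likeness was the share of Axin2 cells with a read minus that of other cells, averaged over 4 tissues, in 19 Axin2 cells and 269 others. Afap1, which encodes an actin-binding protein, stood at 42.1 percentage points, with a read in 15 of 19 (78.9%) and 97 of 269 (36.1%). Commd9 stood at 38.6, Ccnt2, which encodes a cyclin of transcription elongation, at 38.1, Soga1 at 37.02 and Rnf181, which encodes a ubiquitin ligase, at 36.01. Afap1, Commd9, Soga1 and Rnf181 were higher in all 4 tissues and Ccnt2 in 3. The median difference over all 7574 genes was 2.01 points, and 57.9% of the genes had a higher mean share in the Axin2 cells. The 5 genes are the top of this ranking, which rests on 3 to 7 Axin2 cells per tissue. Their values therefore describe the choice only, and no link with Axin2 was tested. No member was among these 5 genes.

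Nkd2, a binding partner and brake of Dishevelled, had the largest ratios of the 10 genes (mm9 chromosome 13, 73955982 to 73985079, minus strand). It reached 23.5 and 46.4 CPM on the PF plates, 37.04 and 34.4 on the GP plates, 0 and 7.71 on the COR plates, and 0 on both SAG plates. No read was found in 86 SAG cells, which allows a share of up to 3.49% at 3 cells, while 10 of 87 PF cells (11.5%, 5.65 to 20.1), 13 of 78 GP cells (16.7%, 9.18 to 26.8) and 3 of 74 COR cells (4.05%, 0.844 to 11.4) had one. Of the 86 SAG cells, 56 were on plate 2, which had few genes per cell. The 30 cells of SAG plate 1 alone allow a larger share. Nkd2 was called in PF to SAG and in SAG to GP, where the size of the ratio is set by the pseudocount. It was also called in PF to COR (2.44, plate ratios 1.49 to 5.57) and in COR to GP (-2.18, -5.25 to -2.02). The 4 Nkd2 calls held under every alternative tried, leaving out the richest cells included. In PF 1 cell of plate 2 held 712 of the 1271 reads, and without the richest cell of each plate PF to SAG changed from 5.42 to 4.19 and PF to COR from 2.44 to 2.93. Of the 222 COR reads, 178 were in 1 cell, which was also the COR cell with the most Axin2 reads. PF and GP were not separated by their plates (0.26, -0.63 to 0.42).

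Nkd1, the close relative of Nkd2, was spread differently (mm9 chromosome 8, 91045243 to 91118786, plus strand). It stood at 16.4 and 36.6 CPM on the PF plates, 53.4 and 0 on the SAG plates, 78.8 and 33.5 on the COR plates, and 48.8 and 76.2 on the GP plates. The SAG plates thus differed, with a read in 10 of 30 cells on plate 1 and in 0 of 56 on plate 2, which allows up to 5.36% at 3 cells. Only PF to GP was called, at -1.11 (-2.15 to -0.41), and the next neighbours in level (GP, COR, PF, SAG) were not separated by their plates. Without SAG plate 2, SAG to COR was 0.48 and SAG to GP -0.41, neither called. Both Nkd genes were read together in 9 cells. Nkd2 was read in 15.3% of Nkd1 cells and in 6.39% of cells without Nkd1.

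Lef1, a DNA-binding partner of β-catenin (mm9 chromosome 3, 130813389 to 130927274, plus strand), shared the SAG lead of Axin2. It reached 20.8 and 41.4 CPM on the SAG plates, 9.57 and 3.92 on the COR plates, 0 and 6.36 on the PF plates, and 0 and 4.76 on the GP plates. Both SAG plates lay above all others. The log2 ratio of PF to SAG was -2.48 (-5.41 to -1.57), that of SAG over COR 2.64 (1.04 to 3.11) and that of SAG over GP 2.79 (1.92 to 5.41), all called with and without SAG plate 2. They stayed called when the richest cell of each plate was left out, at -2.31, 3.18 and 2.40. The SAG level nevertheless came from few cells. Of the 7 SAG cells with Lef1, 5 were on plate 1, so the plate 2 level rested on the few that remained. Without the richest cells, the ratios rest on fewer still. With Rn45s counted the ratios were -0.67, 0.81 and 1.02, in the same direction and no longer called. COR, PF and GP were not separated from each other. The share of cells was 8.14% in SAG (3.34 to 16.1), 5.41% in COR, 5.13% in GP and 3.45% in PF, with intervals that overlap. Reads of both Axin2 and Lef1 were found in 1 cell of the 325, in PF. With 6 Axin2 cells and 7 Lef1 cells in SAG, their overlap could hardly be measured there.

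Tcf7, the other DNA-binding factor, had a pattern of its own (mm9 chromosome 11, 52065873 to 52096681, minus strand). It stood at 205 and 43.2 CPM on the COR plates, 97.2 and 24.9 on the PF plates, 36.1 and 11.03 on the SAG plates, and 7.69 and 6.20 on the GP plates. Every GP value lay below every value of the sutures. Tcf7 was called higher than in GP in COR (3.02, 2.35 to 4.84), PF (2.42, 1.57 to 3.77) and SAG (1.56, 0.47 to 2.36). It was also called lower in SAG than in COR (-1.46, -4.10 to -0.25), a call that ended without SAG plate 2 (-0.71). The SAG to GP call ended under 4 alternatives. It was -0.091 with Rn45s counted, 0.91 with a pseudocount of 10, 0.74 on plates numbered 2 alone, and 1.88 without the richest cells. The share of cells with Tcf7 was 31.1% in COR (interval 20.8 to 42.9) and 17.2% in PF (9.98 to 26.8). It was lower in SAG, at 6.98% (2.60 to 14.6), and in GP, at 6.41% (2.11 to 14.3). On the COR plates it was 62.5% and 22.4%. At equal depth the shares of COR, PF, SAG and GP were 27.7%, 17.9%, 6.25% and 6.69%.

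Of 66 cells with a read of Lef1 or Tcf7, 1 had both, a COR cell. Both genes were read in few cells, so few cells with both could be met, and no lack of overlap is read from this count. Tcf7 was read in 5.56% of Lef1 cells and in 15.6% of the others. The ratio of their levels per kilobase, Lef1 over Tcf7, was 1.15 in SAG, 0.444 in GP, 0.0956 in PF and 0.0551 in COR. SAG was thus the only one of the 4 tissues where Lef1 was at or above Tcf7 on this scale, and this came from plate 2. The levels per kilobase were 5.97 CPM for Lef1 and 14.2 for Tcf7 on SAG plate 1, and 11.9 and 4.34 on SAG plate 2.

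The co-receptors Lrp5 and Lrp6 differed in level and in how they varied. Lrp6 (mm9 chromosome 6, 134396494 to 134516983, minus strand) stood at 151 and 444 CPM on the SAG plates, 41.9 and 139 on the PF plates, 52.5 and 86.4 on the COR plates, and 89.1 and 48.8 on the GP plates. Both SAG plates lay above all others, and Lrp6 was called higher in SAG in all 3 comparisons, against PF (PF to SAG -1.44, -3.37 to -0.12), COR (1.97, 0.80 to 3.06) and GP (2.53, 0.76 to 3.16). Without SAG plate 2 the first 2 ratios were -0.33 and 0.86, no longer called, and SAG to GP was 1.42, still called. With Rn45s counted none of the 3 was called, with PF to SAG at 0.44, SAG to COR at 0.080 and SAG to GP at 0.72. PF to SAG also lost its call without the richest cells, at -1.39. PF, COR and GP were not separated by their plates. The share of cells with Lrp6 hardly followed its level across tissues. Within SAG the share was larger on plate 1, where the level was lower, than on plate 2. The PF share was 45.98% (35.2 to 57.002), close to 45.3% in SAG (34.6 to 56.5) and 44.6% in COR (33.02 to 56.6), and the GP share was 34.6% (24.2 to 46.2).

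Lrp5 (mm9 chromosome 19, 3584825 to 3686564, minus strand) was uneven between the SAG plates. It stood at 1.89 CPM on SAG plate 1 and 124 on SAG plate 2, and at 7.78 and 16.1 on the PF plates, 12.5 and 8.80 on the GP plates, and 0.618 and 4.17 on the COR plates. No SAG ratio of Lrp5 was called, and PF to SAG changed from -2.30 to 2.42 without SAG plate 2, when it was called. The 1 call of the full data was PF to COR, at 1.68 (0.76 to 3.40), and it was no longer called when the richest cells were left out, at 2.09. Many Lrp5 cells held few reads, with a median of 5 over 51 cells, against 49 over 139 cells for Lrp6. Per kilobase Lrp5 stood at 0.0832 of Lrp6 in COR, 0.218 in PF, 0.307 in GP and 0.417 in SAG. Of 169 cells with either co-receptor, 21 had both, and Lrp6 was read in 41.2% of Lrp5 cells and in 43.1% of the others.

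Neither Frizzled receptor was called in any comparison of the full data. Some alternatives did call them, such as Fzd1 in SAG to COR and SAG to GP with Rn45s counted, and Fzd2 in PF to SAG without the richest cells. Fzd1 (mm9 chromosome 5, 4753842 to 4758216, minus strand) stood at 59.7 and 62.4 CPM on the PF plates, 60.5 and 45.1 on the SAG plates, 78.8 and 77.5 on the COR plates, and 158 and 88.01 on the GP plates. Both GP plates lay above all others, yet no ratio reached 1 in size, and the furthest was SAG to GP at -0.95 (-1.79 to -0.53). Fzd2 (mm9 chromosome 11, 102465745 to 102469372, plus strand) ran from 7.10 on COR plate 1 to 38.2 on GP plate 2, and its tissue levels were 34.4 in PF, 33.9 in GP, 23.3 in COR and 22.5 in SAG, with no call. Per kilobase, Fzd1 was 1.49 times Fzd2 in PF, 1.89 in SAG, 2.45 in GP and 2.76 in COR. The share of Fzd1 cells was 8.14% in SAG (3.34 to 16.1). COR had 28.4% (18.5 to 40.1), and GP 32.1% (21.9 to 43.6). For Fzd2 it was 9.30% in SAG (4.10 to 17.5) and 27.6% in PF (18.5 to 38.2). The SAG shares came from plate 2 in part, with Fzd1 in 16.7% (5.64 to 34.7) and 3.57% and Fzd2 in 13.3% and 7.14% of cells on plates 1 and 2. Fzd2 was read in 33.8% of Fzd1 cells and in 18.9% of the others.

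A cell needs both kinds of receptor to take up a canonical Wnt signal. Reads of Fzd1 or Fzd2 together with Lrp5 or Lrp6 were therefore counted in the same cell. Frizzled genes outside the 10 were not counted, so cells with only those were missed. In SAG Fzd9 was read in 25.6% of cells and Fzd3 in 24.4%, but Fzd4 and Fzd5 in 1.16% each. The share of cells with both kinds, so counted, was 31.1% in COR (20.8 to 42.9) and 27.6% in PF (18.5 to 38.2). GP followed with 24.4% (15.3 to 35.4), and SAG had 13.95% (7.42 to 23.1). On SAG plates 1 and 2 it was 26.7% and 7.14%. With a Ctnnb1 read as well the shares were 29.7%, 20.7%, 20.5% and 10.5%. Such cells had a read of Axin2, Nkd1, Nkd2, Lef1 or Tcf7 in 56.5% of cases in COR (other cells 58.8%), 45.8% in PF (38.1%), 52.6% in GP (38.98%) and 41.7% in SAG (28.4%). The plates did not all share these directions. On SAG plate 1 the share was 37.5% in such cells against 72.7% in others. On SAG plate 2 it was 50% (2 of 4) against 9.62%. The GP plates gave 42.9% against 46.2% and 58.3% against 36.96%, while both PF plates were higher in such cells. Such cells were also deeper in every tissue, with median reads other than Rn45s of 380186 against 251364 in PF and 259469 against 180711 in SAG. The part of depth in these shares was not tested.

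Ctnnb1, the transducer itself, lies on mm9 chromosome 9 (120838334 to 120869625, plus strand). It stood at 826 and 795 CPM on the PF plates, 915 and 604 on the COR plates, 368 and 531 on the GP plates, and 761 and 133 on the SAG plates. SAG plate 2 stood apart from all 7 others. Its share of cells with a read was 16.1% (7.62 to 28.3), beside 86.7% on SAG plate 1 and 77.6% to 100% on the plates of the other tissues. Ctnnb1 was called higher in PF than in SAG (1.06, 0.06 to 2.62), and without SAG plate 2 the ratio was 0.07 and not called. It was lower in GP than in PF on every pair of plates (0.67, 0.58 to 1.16) and than in COR (0.34, 0.18 to 1.31), both under the size that a call needs.

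The rest of the pathway was read through 55 further genes in 5 lists. Between PF and SAG 18 of 44 that entered were called (40.9%, all genes 30.1%), 8 higher in PF and 10 higher in SAG. Between PF and COR it was 10 of 42 (23.8%, all genes 11.8%), 5 in each direction. Between SAG and COR it was 17 of 44 (38.6%, 32.4%), and between SAG and GP 17 of 44 (38.6%, 31.6%). Between PF and GP 10 of 41 were called (24.4%, 16.4%), 7 of them higher in PF, and between COR and GP 8 of 42 (19.05%, 13.4%). Without SAG plate 2 the counts with SAG were 11 of 41 in PF to SAG (26.8%, all genes 33.3%), 7 higher in PF and 4 in SAG, 15 of 40 in SAG to COR (37.5%, 31.9%) and 13 of 42 in SAG to GP (30.95%, 34%). The share over that of all genes in PF to SAG and SAG to GP thus rested on that plate. The split with SAG also followed the scaling. With Rn45s counted, 9 genes were called between PF and SAG, all higher in PF.

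Among the other 17 receptors and co-receptors, Lgr5, a receptor of the R-spondin proteins that raise Wnt signals and a marker of stem cells in several organs, separated the tissues most cleanly. It stood at 53.2 and 54.5 CPM on the GP plates and 5.92 and 31.2 on the PF plates, with no read on the SAG and COR plates. It was read in 23.1% of GP cells and 9.20% of PF cells, and 0 of 86 SAG and 0 of 74 COR cells allow shares of up to 3.49% and 4.05% at 3 cells each. Most of these SAG cells were on plate 2, with few genes per cell, so the SAG limit leans on that plate. It was called in 5 comparisons, with PF to GP at -1.02, and the ratios against SAG and COR, both without a read, are set by the pseudocount. Nkd2 likewise had its highest levels in GP and PF and no read in SAG. Fzd6 went the other way, with 25.02 and 12.5 CPM on the COR plates, 3.21 and 12.7 on the PF plates, and 0 and 0.0425 on the GP plates, called in PF to GP (3.51) and COR to GP (3.84). Fzd4 stood at 46.8 and 12.7 CPM on the GP plates and at 0 and 0.0967 on the SAG plates, and was called higher in GP (SAG to GP -4.22) and in PF (PF to SAG 3.97) than in SAG. Lrp4, a relative of the co-receptors, stood at 55.7 CPM in PF, 31.8 in COR, 11.3 in SAG and 8.71 in GP, and was called in 4 comparisons. Fzd9, the highest of the list by mean level, stood at 612 CPM on SAG plate 1 and 17.7 on SAG plate 2 and was called higher in PF than in COR (2.07) and GP (1.25). Fzd3 (PF to SAG -2.27), Ror2 (-2.85), Kremen1 (-1.79), Fzd7 (-1.25) and Fzd8 (-1.24) were called higher in SAG than in PF. Of these 5, Fzd7 and Kremen1 stayed called without SAG plate 2. Kremen1, which acts with the inhibitor Dkk1, was also higher in COR than in PF (PF to COR -1.93), as were Fzd5 (-2.67) and Ror2 (-1.09), while Fzd8 was lower (1.81). Further calls were Fzd5 (PF to GP -2.79), Fzd7 (SAG to GP 1.67), Ror1 (COR to GP 2.59), and Ryk (-2.05), Fzd3 (2.31), Fzd6 (-1.14) and Fzd8 (3.05) for SAG to COR, beside Fzd8 for COR to GP (-2.06). Of the SAG to COR calls, Ryk, Fzd3 and Fzd6 ended without SAG plate 2.

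Other response genes gave no common direction. Tnfrsf19, a receptor of the tumour necrosis factor family, stood at 312 and 406 CPM on the COR plates, 193 and 136 on the PF plates, 64.6 and 56.9 on the SAG plates, and 27.5 and 55.6 on the GP plates. COR lay above PF, and PF above SAG and GP, on every pair of plates, and all 5 of these differences were called. Cd44, a receptor of hyaluronan, was also highest in COR, at 231 and 384 CPM, against 11.9 to 141 elsewhere, and was called in all 3 comparisons with COR and higher than in SAG in PF (1.34) and GP (SAG to GP -1.34). Fgf18, a growth factor of bone and cartilage, stood at 0.343 CPM in COR, 11.3 in PF and 10.96 in GP, and was called lower in COR than in both. It was also lower in SAG than in PF (1.43) and GP (-1.40). Myc, a driver of cell growth, was higher in SAG than in PF (-1.53), COR (1.66) and GP (1.52). Bambi was lower in SAG than in COR (-1.67), with 102 CPM on SAG plate 1 and 1.16 on SAG plate 2. Twist1, the suture gene whose loss fuses the coronal suture, was called higher in PF than in GP (1.14). Ccnd1 was lower in SAG than in GP (-1.07), and Apcdd1 higher (1.44). Without SAG plate 2 all the SAG calls of Myc, Fgf18, Bambi, Ccnd1 and Apcdd1 ended, as did those of Cd44 against PF and GP, and 0 genes of the list were called in SAG to GP. Myc stood at 90.2 CPM on SAG plate 1. Sp5, T and Isl1 had no read in any kept cell.

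Inside the cell, the destruction complex and its partners were called with SAG in most cases, and all of these calls were higher in SAG. In PF to SAG they were Amer1 (-2.28), Btrc (-1.39), Csnk1a1 (-1.19) and Dvl3 (-2.17). In SAG to COR they were Apc (2.84), Btrc (1.78) and Dvl3 (2.45), and in SAG to GP Amer1 (1.75), Apc (2.99), Btrc (2.41), Csnk1a1 (1.26) and Dvl3 (2.76). Btrc was also higher in PF than in GP (1.02). The highest of the list by mean level, Csnk1a1 at 238 CPM and the kinase Gsk3b at 132, were followed by the scaffold Apc at 86.4. In PF to SAG 4 of 9 that entered were called (all genes 30.1%), in SAG to COR 3 of 9 (32.4%) and in SAG to GP 5 of 9 (31.6%). The list is too small to set these shares apart from those of all genes. With Rn45s counted, no gene of the 5 lists was called higher in SAG than in PF, so the 4 PF to SAG calls ended. Part of these SAG calls rested on plate 2. Dvl3 stood at 75.4 CPM on SAG plate 1 and 294 on SAG plate 2. Without plate 2, none of the 4 PF to SAG calls was kept and Axin1 was called higher in PF (1.88), while Btrc and Dvl3 stayed called in SAG to COR and SAG to GP. Of the nuclear partners, Bcl9, which binds β-catenin, stood at 41.9 and 25.8 CPM on the PF plates and 7.10 and 12.01 on the COR plates, and was called higher in PF than in COR (1.26) and GP (1.93). On SAG plates 1 and 2 it stood at 19.3 and 403, with calls in SAG to COR (4.32) and SAG to GP (4.99). The corepressor Aes was lower in SAG than in PF (1.37), COR (-1.49) and GP (-1.42), and Tle2 lower than in PF (2.29) and COR (-2.32), while Tle4 was higher in SAG than in COR (1.33), Pygo2 higher in SAG than in GP (1.66) and Ctnnbip1 lower in PF than in GP (-1.04). Ctbp1, at a mean of 232 CPM the highest of this list, was not called. Of the pair that removes Frizzled receptors from the cell surface, Znrf3 was higher in SAG than in COR (1.16) and GP (1.24), and Rnf43 had no read. Without SAG plate 2 the calls of Aes, Pygo2 and Znrf3 ended, as did Bcl9 in SAG to COR, while Tle2 and Tle4 stayed called.

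Counted per cell, 2 or 3 of the 10 genes had a read in the median cell of PF (2), GP (2) and COR (3), and 1 in SAG. No member was read in 23 of 86 SAG cells, all on plate 2, and in 1 COR, 2 PF and 6 GP cells. Summed without Ctnnb1, the other 9 genes gave 302.6 CPM in COR, 322 in GP, 351 in PF and 568 in SAG, and 369.8 CPM on SAG plate 1.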

How the data were processed

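Each of the 360 cells had its own record, and its tissue was taken from the record's title and source name. For 1 cell labelled SAG the description named a PF plate, and an alternative left it out. The authors deposited raw read counts per gene in 8 tables, 1 per plate, without molecular identifiers. Per the labels, their processing names STAR 2.5.3a, HTSeq, Seurat 2.3.0, R 3.4.4 and the build mm9; the annotation and use of strand are not given in the sources used here. Reads shared by overlapping genes are therefore uncertain. In all, 0 columns were left without a cell, and no 2 kept cells had identical counts.

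Cells with at least 500 genes and 10000 reads were kept, and counts were summed per tissue and plate (Python 3.11.15, pandas 2.3.3, scipy 1.17.1). Depth per tissue was 17212041 to 32037308 reads other than Rn45s. A pseudocount of 1 CPM was used. Shares have exact Clopper-Pearson intervals (95%), which cover counting error only; a count of 0 is given with the share that 3 cells would make. Equal depth means 100000 reads other than Rn45s, with shallower cells left out. The ratio code was tested on simulated data. Coordinates and transcript lengths are those of GENCODE vM1 on mm9. TMM factors came from edgeR 4.0.16.

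The members, lists and the rule for named genes (members, pathway genes called in a comparison or among the 3 highest of their list, and the 5 genes most like Axin2) were chosen with earlier results of these data known. Alternatives changed the scaling, pseudocount (0.1 and 10), filters, plates and weight of single cells. No test was run, since each tissue is 1 sample. Doublets were not called, as cells had been sorted singly.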

Additional observations from a re-analysis of the deposited data

Results flagged for a closer look

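The 35 cells left out by the filter held reads of 3 of the 10 genes. They held 6 Nkd2 reads in 1 cell and 10 Ctnnb1 reads in 4 cells, both above the 3 reads that a count of 0 allows, and 1 Tcf7 read. Keeping all 360 cells kept all 20 calls and added a call of Fzd1 in SAG to GP.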

How the results depend on the processing

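Of 690 log2 ratios recomputed under the alternatives, 590 moved by less than the spread between plates, 95 moved by more and 5 reversed. With Rn45s counted, Lrp6 in PF to SAG turned to 0.44, Axin2 in SAG to COR to -0.36 and in SAG to GP to -0.21, and Tcf7 in SAG to GP to -0.091. With the richest cell of each gene and plate left out, Axin2 in SAG to COR turned to -0.32. The count of members called moved by over 1.5 times in 20 of 81 cases. With Rn45s counted it was 1 in PF to SAG, 2 in SAG to COR and 2 in SAG to GP. With a pseudocount of 10 it was 1 in PF to COR, 1 in PF to GP and 3 in SAG to GP. In SAG to COR it was 2 under the stricter cell filter (1500 genes and 50000 reads, which left 0 cells of SAG plate 2) and 2 without SAG plate 2. In PF to COR it was 4 by the mean of each cell's CPM and 1 without the richest cells. With no minimum ratio it was 4 in PF to COR, 4 in PF to GP and 4 in COR to GP. With plates of 1 number only, it was 6 to 9 in PF to SAG, 2 to 4 in PF to COR, 5 to 7 in SAG to COR, 3 to 5 in PF to GP, 8 to 8 in SAG to GP and 3 to 4 in COR to GP, since 1 plate ratio then decides the sign. In all, 6 of the 20 calls were kept under every alternative, 4 of Nkd2 and 2 of Tcf7. Of 320 shares of cells, 290 moved by less than their interval. The PF share of Axin2 cells was 1.15% at 10 or more reads, and the GP share was 0% to 5.17% by plate. The bone marker difference was 1.26 genes at 10 or more Axin2 reads, where PF had 1 such cell. No paired analysis was possible because no test was run and plates of the same number share no animal or batch in the labels.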
